A study of Mus musculus with 6 samples.

Results

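The interleukin-1 (IL-1) family was examined in corneal epithelial cells as 10 genes taken by symbol from the gene expression table, which lists 17784 genes. They were the agonist genes Il1a, Il1b, Il18 and Il33, the antagonist gene Il1rn, the receptor genes Il1r1, Il1rap, Il1rl1 and Il1rl2, and the decoy receptor gene Il1r2. All 10 were found, 8 passed the filter for low counts and were tested, and Il1b and Il1rl1 did not pass it. Bulk RNA-seq compared 3 control samples, from Ptch1 f/f mice that the sample labels call ctrl, with 3 samples from Prrx1-CreERT;Ptch1 f/f mice, called Ptch1-ablated here. Mice of both groups were labelled as 10 weeks old and received 3 doses of tamoxifen, with a treatment span of 2 months, and the protocol in the labels gives separation of the epithelium with EDTA, while the series title calls the cells sorted. Prrx1-CreERT is a tamoxifen-inducible recombinase active in keratocytes, corneal endothelium and other ocular mesenchyme, so the deletion was aimed at the cells beneath the epithelium and not at the epithelial cells that were sequenced. In bulk samples, fewer cells of a type and less RNA per cell cannot be told apart. Each sample is described as a biological replicate, and p values measure the spread between these 3 samples a group.

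IL-1 alpha and IL-1 beta both bind the receptor IL-1R1, which then recruits the accessory protein IL-1RAP and signals through MyD88 and IRAK kinases to NF-kappaB. The receptor antagonist IL-1RA, encoded by Il1rn, occupies IL-1R1 without recruiting IL-1RAP, and IL-1R2 binds IL-1 but lacks the signalling domain, so it acts as a decoy. IL-1 alpha is stored in epithelial cells, including those of the cornea, and works as an alarm signal when released from injured cells, while IL-1 beta and IL-18 need proteolytic cleavage, commonly by caspase-1. IL-33 signals through ST2, encoded by Il1rl1, and the IL-36 cytokines signal through the receptor encoded by Il1rl2. The receptors for IL-1, IL-33 and IL-36 share IL-1RAP as accessory chain.

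The promoter windows of Il1a, Il1b and Il1rn are shown because these genes encode the agonists and the antagonist that compete for IL-1R1 and that are contrasted below. Promoter windows from RefSeq (GRCm38.p6) hold 250 bases before and 50 bases after a transcription start, in the gene's own direction. All 10 members matched, with 15 windows. The windows lie at chr2:129309923-129310222 on the minus strand for Il1a, at chr2:129371090-129371389 on the minus strand for Il1b, and at chr2:24336610-24336909 on the plus strand for the first of the 3 starts of Il1rn. Capitals mark matches to TGANTCA, the core of the element bound by AP-1 factors, and to TATAAA, the core promoter box named after its letters, both searched on both strands.
Il1a: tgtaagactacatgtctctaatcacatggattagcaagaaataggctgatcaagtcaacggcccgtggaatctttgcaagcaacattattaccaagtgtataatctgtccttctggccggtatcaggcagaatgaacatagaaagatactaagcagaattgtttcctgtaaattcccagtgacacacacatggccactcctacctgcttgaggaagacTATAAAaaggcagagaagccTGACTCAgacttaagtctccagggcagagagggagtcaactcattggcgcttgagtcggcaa
Il1b: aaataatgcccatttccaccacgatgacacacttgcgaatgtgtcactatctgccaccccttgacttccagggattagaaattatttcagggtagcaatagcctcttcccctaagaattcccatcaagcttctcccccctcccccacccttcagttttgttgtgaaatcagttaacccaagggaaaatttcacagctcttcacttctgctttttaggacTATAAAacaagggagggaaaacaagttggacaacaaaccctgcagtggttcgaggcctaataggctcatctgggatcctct
Il1rn: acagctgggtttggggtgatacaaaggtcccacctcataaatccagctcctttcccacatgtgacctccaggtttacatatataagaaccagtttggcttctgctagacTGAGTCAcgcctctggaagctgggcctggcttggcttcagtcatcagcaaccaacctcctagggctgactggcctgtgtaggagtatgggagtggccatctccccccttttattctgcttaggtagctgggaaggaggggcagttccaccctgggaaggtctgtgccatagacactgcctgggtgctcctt
The Il1a window held TATAAA from 32 bases and TGANTCA from 12 bases before the start. The Il1b window held TATAAA from 31 bases before the start and no TGANTCA. The first Il1rn window held TGANTCA from 141 bases before the start and no TATAAA. The matches do not overlap each other. TGANTCA occurred in 2 of the 15 member windows, 1 each of Il1a and Il1rn, and in 7.81% of all 32851 windows. TATAAA occurred in windows of 6 members and in 13.6% of all windows. The first is a count of genes, some with several windows, so it is not on the scale of that share. A match describes these letters in this window only. In the order of protein-coding genes on the same assembly, Il1a and Il1b are neighbours on chromosome 2, as are Il1r2, Il1r1, Il1rl2 and Il1rl1 on chromosome 1, while Il1rn is separated from Il1a by 1093 genes.

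Depth was similar across samples, with 20296741 to 20625813 expected counts each, so that 3 counts corresponded to 0.145 to 0.148 CPM (counts scaled to library size), a floor for counting error only. The targeted gene Ptch1 had 520, 670 and 703 counts in control and 377, 434 and 473 in Ptch1-ablated replicates 1, 2 and 3 (log2 fold change -0.51, edgeR adjusted p = 0.0401), in cells the deletion was not aimed at. Corneal epithelial identity was checked with 14 listed genes, of which 13 were in the table, with counts in every sample, and Krt3 was not. Krt12, the keratin of differentiated corneal epithelium, had 610842 to 791597 counts in a sample. Within this list Krt14, a keratin of basal cells, rose from 534 to 644 TPM in control samples to 2420 to 5798 TPM in Ptch1-ablated samples (log2 fold change 2.81, edgeR adjusted p = 0.0077). Dsg1a, a desmosomal cadherin gene, was lower in every Ptch1-ablated sample and passed the adjusted p alone (log2 fold change -0.55, edgeR adjusted p = 0.0183), and the other 11 did not pass it. Stromal marker genes summed to 28.8, 24.1 and 96.5 CPM in control replicates 1, 2 and 3 and to 16.9 to 28.5 CPM in Ptch1-ablated samples, so control replicate 3 stood apart, and Kera had at most 1 count in every sample. The excess in control replicate 3 was mostly Col1a2, with 1276 counts against 4 to 128 in the other samples. Col1a1, Col3a1, Col5a1 and Prrx1 were also highest in that sample, while Pdgfra, Dcn and Thy1 were not. Leukocyte markers summed to 187 to 250 CPM in control samples and 251 to 349 CPM in Ptch1-ablated samples, mostly from Itgam, while Ptprc had at most 9 counts, Adgre1 and Lyz2 at most 3. Without Itgam the other 10 leukocyte markers overlapped between groups, at 34.8 to 40.1 and 32.9 to 52.6 CPM. Conjunctival markers, chiefly Krt13 and Krt4, summed to 1008 to 1531 CPM in control and 1542 to 3452 CPM in Ptch1-ablated samples, highest in Ptch1-ablated replicate 1, and Spdef had at most 9 counts. Neutrophil markers overlapped, at 6.36 to 6.85 CPM in control and 5.62 to 7.69 CPM in Ptch1-ablated samples. Mast cell and type 2 lymphoid markers, nearly all Kit, summed to 265 to 314 CPM in control and 155 to 223 CPM in Ptch1-ablated samples. Kit passed the adjusted p alone (log2 fold change -0.58, edgeR adjusted p = 0.0349), while Cpa3 had at most 37 counts and Gata3 at most 5. The part of these differences in the results that follow was not tested.

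Across both groups the 10 members were led by Il18, and Il1a ranked second among them. Levels are given as TPM (a transcript share scaled for gene length and depth), as mean ± SD with n = 3. In control samples Il18 reached 191 ± 12.1 TPM (SD, n = 3), 6.34 times the level of Il1a at 30.2 ± 0.512 TPM (SD, n = 3). Below them came Il1rl2 at 27.3 ± 2.90 TPM, whose range overlapped that of Il1a, and then Il1rn (15.5 ± 4.53), Il1r1 (10.5 ± 2.87), Il1rap (8.98 ± 0.669) and Il33 (7.62 ± 3.10), each overlapping the next. Il1r2 (1.70 ± 1.09 TPM) and Il1b (0.347 ± 0.132 TPM) overlapped each other, and Il1rl1 was lowest at 0.137 ± 0.0208 TPM. In Ptch1-ablated samples the order was similar, with Il18 at 211 ± 19.8 TPM and Il1a at 64.1 ± 18.3 TPM (SD, n = 3), a level 3.29 times lower than Il18. There Il1a was apart from Il1rl2, while Il1rl2, Il1rn, Il33, Il1r1, Il1rap and Il1r2 each overlapped the next. No test was made of the order of levels between genes.

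**Figure D1:**
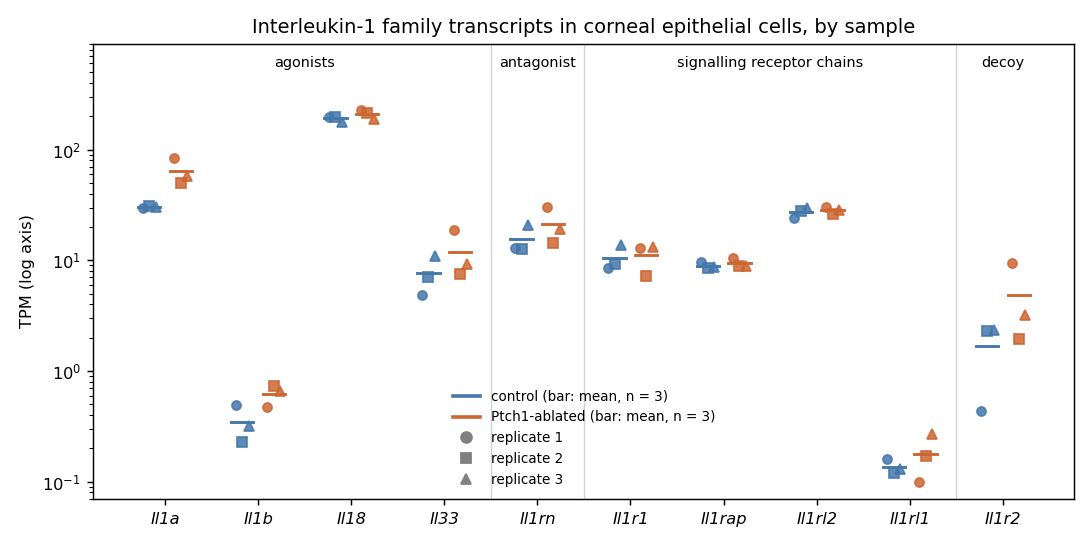
TPM of the 10 IL-1 family members on a log axis, with each symbol 1 sample and each bar the mean of 3. Il1a is the only member whose Ptch1-ablated samples (49.9 to 84.7 TPM) all lie above its control samples (29.7 to 30.7 TPM).

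Il1a was the only member called differentially expressed, and it rose in Ptch1-ablated epithelial cells. It had 29.7, 30.7 and 30.3 TPM in control replicates 1, 2 and 3, and 84.7, 49.9 and 57.8 TPM in Ptch1-ablated replicates 1, 2 and 3. The control samples lay close together, every Ptch1-ablated sample was above them, and Ptch1-ablated replicate 1 was highest. In expected counts these were 562, 564 and 557 against 1609, 909 and 1037. The log2 fold change was 1.13 (standard error, SE, 0.21, edgeR adjusted p = 0.0182), where p comes from the quasi-likelihood test with Benjamini-Hochberg adjustment over all tested genes. This was a 2.19-fold rise. To be called, a gene needed an adjusted p no higher than 0.05 and at least a 2-fold change, which 3.23% of the 12999 tested genes met, 2.34% upward and 0.892% downward, against 1 of 8 tested members. All Ptch1-ablated samples lay above all control samples for 19.7% of tested genes, and for 1 of the 8 tested members. The call was lost when control replicate 1 (adjusted p = 0.0543 in edgeR), control replicate 2 (adjusted p = 0.085 in edgeR) or control replicate 3 (adjusted p = 0.0553 in edgeR) was left out. Without Ptch1-ablated replicate 1 the adjusted p was 0.00279 in edgeR, and the fold fell short of the threshold at 1.79.

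Il1b, the agonist made largely by activated myeloid cells, was near the floor in every sample. It had 9, 4 and 4 counts in control replicates 1, 2 and 3 and 6, 13 and 9 counts in the Ptch1-ablated ones. That is 0.490, 0.230 and 0.320 TPM against 0.470, 0.740 and 0.660 TPM. The groups overlapped. Il1b did not pass the filter for low counts, and with no filter its log2 fold change was 0.75 (edgeR adjusted p = 0.426). With so few counts, a difference of this size was not detectable.

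Il18, the most abundant member, had 198, 199 and 177 TPM in control samples and 227, 216 and 189 TPM in Ptch1-ablated samples. The groups overlapped, since Ptch1-ablated replicate 3 lay below control replicates 1 and 2. Its log2 fold change was 0.18 (SE 0.11, edgeR adjusted p = 0.299). Il33, a nuclear alarm cytokine of barrier epithelia, had 4.85, 7.04 and 11.0 TPM in control samples and 18.7, 7.55 and 9.30 TPM in Ptch1-ablated samples. Control replicate 3, the sample with the highest stromal marker sum, mostly from Col1a2, was higher than 2 of the 3 Ptch1-ablated samples. The log2 fold change of Il33 was 0.70 (SE 0.41, edgeR adjusted p = 0.265). It was 1.04 without control replicate 3 and 0.16 without Ptch1-ablated replicate 1, with an adjusted p of 0.177 and 0.759 in edgeR.

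The antagonist gene Il1rn had overlapping groups. It had 12.97, 12.72 and 20.68 TPM in control replicates 1, 2 and 3, and 30.46, 14.41 and 19.18 TPM in Ptch1-ablated replicates 1, 2 and 3. Control replicate 3 lay above Ptch1-ablated replicates 2 and 3, and Ptch1-ablated replicate 1 was highest of all. The expected counts, 307, 292 and 474 against 724, 329 and 430, were not whole before rounding, so RSEM assigned part of the Il1rn reads by estimate. The log2 fold change was 0.52 (SE 0.31, edgeR adjusted p = 0.272). It was 0.77 without control replicate 3 and 0.13 without Ptch1-ablated replicate 1, with an adjusted p of 0.181 and 0.732 in edgeR. The deposited values are per gene and do not separate the secreted form of IL-1RA from its intracellular forms.

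The genes for the signalling receptor chains had overlapping groups, and none was called. Il1r1, the receptor for both IL-1 agonists, had 8.49, 9.25 and 13.8 TPM in control samples and 12.9, 7.24 and 13.3 TPM in Ptch1-ablated samples. Its groups overlapped fully, with a log2 difference of 0.13 (SE 0.26, edgeR adjusted p = 0.756). Il1rap, the shared accessory chain, had 9.73, 8.45 and 8.75 TPM against 10.5, 8.89 and 8.82 TPM. Its log2 fold change was 0.12 (SE 0.13, edgeR adjusted p = 0.564). Il1rl2, the IL-36 receptor, had 24.2, 27.7 and 29.9 TPM in control samples and 30.0, 26.2 and 28.4 TPM in Ptch1-ablated samples. These overlapped too, with a log2 fold change of 0.09 (SE 0.10, edgeR adjusted p = 0.546). The signs for Il1r1 and Il1rap turned to just below 0 without Ptch1-ablated replicate 1, at -0.02 and -0.0016 on the log2 scale. Il1rl1, the IL-33 receptor, had 8.36, 5.98 and 6.54 counts in control samples and 5.17, 8.55 and 12.5 counts in Ptch1-ablated samples, which overlapped. It did not pass the filter, and with no filter its log2 fold change was 0.34 (edgeR adjusted p = 0.681).

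The decoy receptor gene Il1r2 had the highest fold change of the tested members and the widest spread. It had 0.440, 2.29 and 2.36 TPM in control replicates 1, 2 and 3, and 9.43, 1.94 and 3.20 TPM in Ptch1-ablated replicates 1, 2 and 3. Control replicate 1 was far below the other control samples, Ptch1-ablated replicate 1 was far above all samples, and Ptch1-ablated replicate 2 lay below 2 control samples. The counts behind these levels were 6, 26 and 31 against 119, 22 and 41. The log2 fold change was 1.59 (SE 0.72, edgeR adjusted p = 0.169), a 3.00-fold difference that did not pass. Without Ptch1-ablated replicate 1 it was 0.63, and without control replicate 1 it was 1.15, with an adjusted p of 0.525 and 0.328 in edgeR. Ptch1-ablated replicate 1 was the highest of the 6 samples for Il1a, Il18, Il33, Il1rn, Il1r2, Il1rap and Il1rl2.

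All 8 tested members had a log2 fold change above 0, with a median of 0.35, while 48.5% of all tested genes were above 0 and their median was -0.01. The 8 values come from the same 6 samples and share Ptch1-ablated replicate 1. Of the 8, 1 had an unadjusted p under 0.05 in edgeR, and 0 were called downward by edgeR, DESeq2 or limma-voom. The share of all tested genes with an unadjusted p under 0.05 was not counted. Here and for the lists below, such counts are therefore not read as results.

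**Figure D2:**
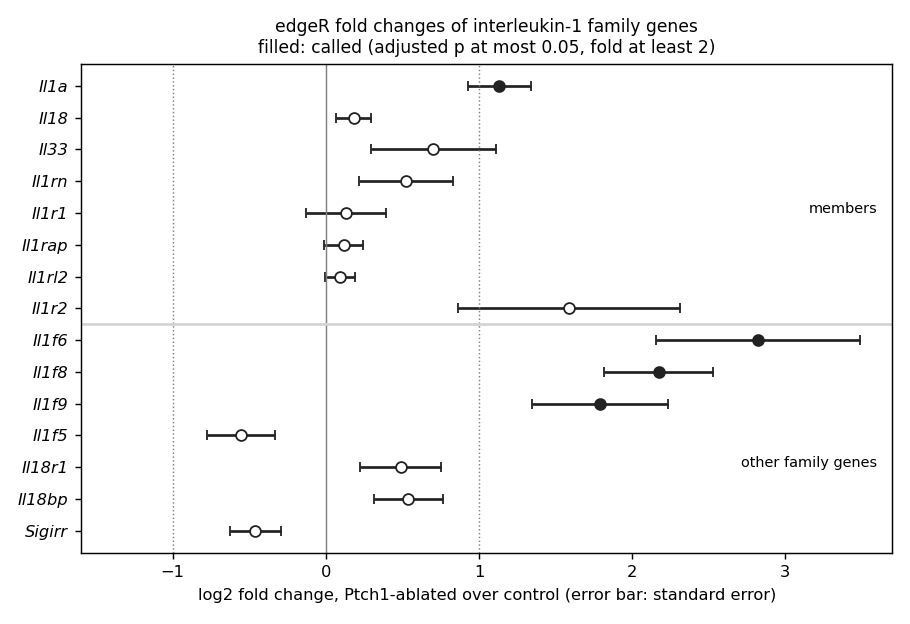
Log2 fold changes (Ptch1-ablated over control) with standard errors from edgeR for the 8 tested members and 7 other tested genes of the family, with filled points for called genes and dotted lines at a 2-fold change. Il1a is the only filled member at 1.13, and Il1f6, Il1f8 and Il1f9 lie further right at 2.82, 2.17 and 1.79.

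The agonists were set against the antagonist, and the decoy against the signalling receptor, by the ratio of their TPM within each sample. The Il1a to Il1rn ratio was 2.29, 2.41 and 1.47 in control replicates 1, 2 and 3, and 2.78, 3.46 and 3.01 in Ptch1-ablated replicates 1, 2 and 3. Every Ptch1-ablated sample lay above every control sample, with a gap that was narrow between Ptch1-ablated replicate 1 and control replicate 2. On average the ratio was 1.53-fold higher in Ptch1-ablated samples, a difference of 0.61 on the log2 scale (means 1.00 ± 0.394 and 1.62 ± 0.159, SD, n = 3). The 2-sided exact permutation p was 0.10, the smallest that 3 samples against 3 can give, and 0.25 after Benjamini-Hochberg adjustment over 10 pairs, so no pair could pass. Without control replicate 3 the difference was 0.39 on the log2 scale.

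The Il1b to Il1rn ratio, which rests on 4 to 13 counts of Il1b, lay between 0.0155 and 0.0378 in control samples and between 0.0154 and 0.0514 in Ptch1-ablated samples, and overlapped (exact permutation p = 0.7). Il1a exceeded Il1b in every sample, by 60.5 to 133 times in control samples and by 67.4 to 180 times in Ptch1-ablated samples. This ratio overlapped between the groups (exact permutation p = 0.8 for the difference between groups). The Il1r2 to Il1r1 ratio was 0.0518, 0.248 and 0.171 in control samples and 0.730, 0.268 and 0.241 in Ptch1-ablated samples. These overlapped through control replicate 2, with a difference of 1.48 on the log2 scale (exact permutation p = 0.2). On CPM, which is not scaled for length, the groups were apart, with a difference of 1.43 (exact permutation p = 0.10, the smallest possible). The overlap was therefore found in TPM and not in CPM. In TPM the difference was 0.81 without control replicate 1 and 0.97 without Ptch1-ablated replicate 1. The decoy transcript was below the IL-1R1 transcript in all 6 samples. The Il1rap to Il1r1 ratio was 0.635 to 1.15 in control and 0.664 to 1.23 in Ptch1-ablated samples (exact permutation p = 1). Il33 exceeded Il1rl1 by 30.3 to 84.4 times and by 34.4 to 187 times, with overlap (exact permutation p = 0.8 for the difference between groups). Il18 exceeded Il18bp, the gene for its soluble inhibitor, by 22.1 to 49.9 times and by 22.5 to 29.6 times, also with overlap (exact permutation p = 0.4 for the difference between groups).

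**Figure D3:**
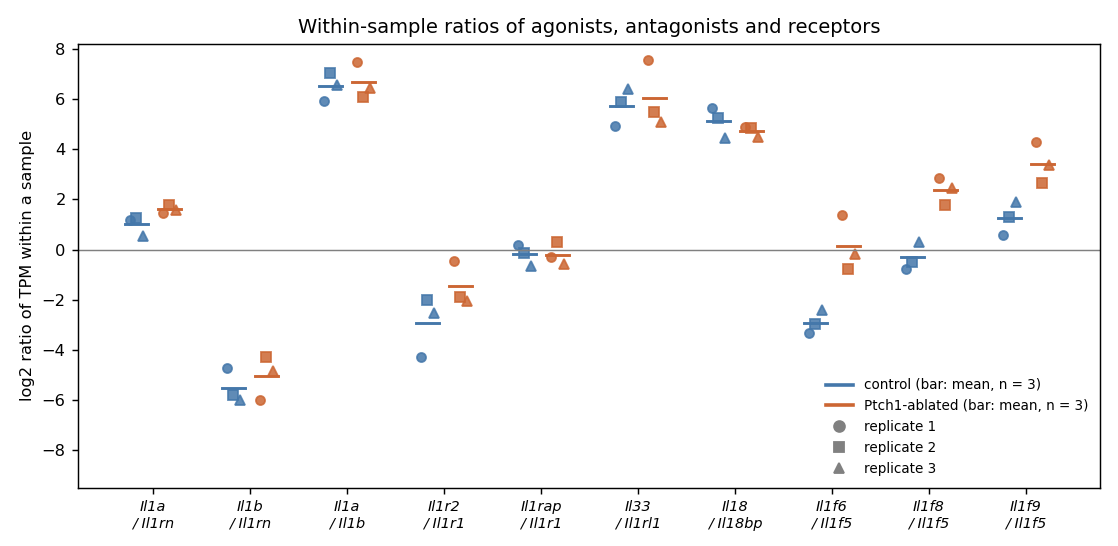
Log2 of the within-sample TPM ratio for 10 pairs, with each symbol 1 sample and each bar the mean of 3. The groups are apart for Il1a to Il1rn and for the 3 IL-36 agonists to Il1f5, and overlap in the other 6 pairs.

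The genes of the IL-36 agonists, which signal through the receptor encoded by Il1rl2, also rose in Ptch1-ablated epithelial cells. They are listed under their older symbols Il1f6 (IL-36 alpha), Il1f8 (IL-36 beta) and Il1f9 (IL-36 gamma), with the antagonist as Il1f5. Il1f6 had 1.10, 0.880 and 1.52 TPM in control samples and 15.6, 3.68 and 4.51 TPM in Ptch1-ablated samples. Its control counts were 9, 7 and 12, so it passed the low-count filter only through its Ptch1-ablated samples. A gene so low in control samples could be called upward only. Il1f8 had 6.60, 4.96 and 9.95 TPM against 44.4, 21.6 and 27.6 TPM. Il1f9, the most abundant of them, had 16.5, 17.1 and 29.8 TPM against 118, 39.5 and 52.2 TPM. In all 3 genes every Ptch1-ablated sample was above every control sample, and Ptch1-ablated replicate 1 was highest. Their log2 fold changes were 2.82 for Il1f6 (SE 0.67, adjusted p = 0.0349), 2.17 for Il1f8 (SE 0.35, adjusted p = 0.0139) and 1.79 for Il1f9 (SE 0.45, adjusted p = 0.0398) in edgeR's quasi-likelihood test. Without Ptch1-ablated replicate 1 the folds of Il1f6 and Il1f9 went from 7.07 and 3.46 to 3.50 and 2.19. Leaving out any 1 control replicate ended the calls of Il1f6 (adjusted p from 0.0791 to 0.133 in edgeR) and Il1f9 (adjusted p from 0.0617 to 0.145 in edgeR), and leaving out control replicate 2 ended that of Il1f8 (adjusted p = 0.0724 in edgeR).

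The IL-36 antagonist gene Il1f5 was lower in every Ptch1-ablated sample, with 11.2, 6.95 and 8.08 TPM in control samples and 6.07, 6.28 and 5.07 TPM in Ptch1-ablated samples, but did not pass the test (log2 fold change -0.55, adjusted p = 0.130 in edgeR's quasi-likelihood test). The ratio to Il1f5 was higher in every Ptch1-ablated sample than in every control sample for all 3 agonists, on average 8.29-fold for Il1f6, 6.41-fold for Il1f8 and 4.54-fold for Il1f9 (exact permutation p = 0.10 each, the smallest possible). Without Ptch1-ablated replicate 1 the log2 difference of the ratio went from 3.05 to 2.44 for Il1f6, from 2.68 to 2.43 for Il1f8 and from 2.18 to 1.76 for Il1f9. The Il1f9 to Il1f5 ratio, for example, was 1.48, 2.46 and 3.69 in control samples and 19.4, 6.29 and 10.3 in Ptch1-ablated samples. In total, 11 other genes of the family were counted, of which 7 were tested, 3 rose and 0 fell (2 lower genes had an unadjusted p under 0.05, and DESeq2 and limma-voom called 0 downward), with a median log2 fold change of 0.54. This count of 3 was 1 in limma-voom, 1 without control replicate 1 or 3, and 0 without control replicate 2. By the same rule 2.34% of all tested genes rose and 0.892% fell, so 0 falling among 7 is not read as a result. The 3 rising genes include Il1f6, which passed the low-count filter only through its Ptch1-ablated samples and could be called upward only. The list was chosen with earlier results of these data known, so 3 rising is a description without a test. Il18r1, an IL-18 receptor chain, and Il18bp had log2 fold changes of 0.49 and 0.54, and Sigirr, an inhibitory receptor, had -0.46, with adjusted p of 0.238, 0.138 and 0.105 in edgeR.

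**Figure D4:**
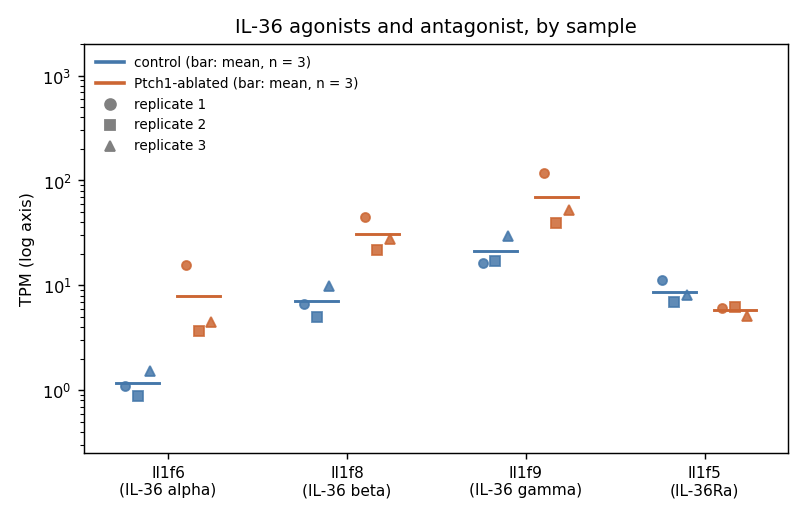
TPM of the 3 IL-36 agonist genes and the antagonist gene Il1f5 on a log axis, with each symbol 1 sample and each bar the mean of 3. The agonist genes are higher in every Ptch1-ablated sample, with Il1f9 at 39.5 to 118 TPM, while Il1f5 is lower at 5.07 to 6.28 TPM.

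The adapters, kinases and NF-kappaB genes below IL-1R1 were counted as a list. Of 22 listed signalling genes, all tested, 0 were called by edgeR, DESeq2 or limma-voom. In edgeR 3.23% of all tested genes were called, so 0 of 22 is not read as a result about the list. An unadjusted p under 0.05 in edgeR was found for 11 of the 22 (7 higher and 4 lower), with no share over all tested genes to set beside it. The median log2 fold change of the list was 0.08. The adapter gene Myd88 and the kinase genes Irak1 and Irak4 had log2 fold changes of 0.19, 0.04 and -0.09, with adjusted p of 0.189, 0.642 and 0.481 in edgeR. With no minimum fold change, 7.61% of tested genes passed upward and 6.41% downward, and 2 signalling genes passed in each direction. Nfkb1, the gene of an NF-kappaB subunit, was higher in every Ptch1-ablated sample (1709 to 1891 against 2386 to 2496 counts), with a log2 fold change of 0.50 (adjusted p = 0.0088 in edgeR). Irak3, an inhibitor of the pathway, passed at 0.72 (adjusted p = 0.0376 in edgeR), while Peli3 and Tab1, genes of an IRAK-binding ubiquitin ligase and of a TAK1-binding protein, passed at -0.81 and -0.29 (adjusted p = 0.0237 and 0.0457 in edgeR).

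Among 22 genes of cytokine processing and release, 17 were tested, 1 rose and 0 fell, with a median log2 fold change of -0.02. Downward, 1 gene had an unadjusted p under 0.05, and DESeq2 and limma-voom called 0 downward. Over all tested genes 2.34% rose and 0.892% fell by the same rule, so these counts are not read as a result about the list. The called gene was Gsdma, which encodes a pore-forming gasdermin of skin-type epithelia, with 26.3, 35.6 and 28.6 counts in control samples and 162, 110 and 93.5 in Ptch1-ablated samples. Its log2 fold change was 2.06 (edgeR adjusted p = 0.0092), and the call was lost without control replicate 2 (adjusted p = 0.051 in edgeR). Ninj1, needed for membrane rupture, passed the adjusted p alone at 0.53 (adjusted p = 0.0258 in edgeR). Casp1, the protease gene for IL-1 beta and IL-18, had 100, 171 and 258 counts in control samples and 86, 81 and 141 in Ptch1-ablated samples, with overlap (log2 fold change -0.73, adjusted p = 0.189 in edgeR). Control replicate 3 was again the highest.

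Genes that textbooks give as targets of IL-1 and NF-kappaB were counted as a separate list of 38, many of which also respond to other stimuli. Of these, 21 were tested, 6 rose and 0 fell (1 lower gene had an unadjusted p under 0.05, and DESeq2 and limma-voom called 0 downward). The median log2 fold change was 0.70, with 18 of 21 above 0. Over all tested genes 2.34% rose and 0.892% fell by the same rule, so 0 falling among 21 is not read as a result. The list was chosen with earlier results of these data known. The 6 rising, the median and the 18 above 0 are therefore descriptions without a test. Bcl3, a co-regulator of NF-kappaB, had 502, 410 and 541 counts in control samples and 1671, 1386 and 1501 in Ptch1-ablated samples. Its log2 fold change was 1.70 (SE 0.12, edgeR adjusted p = 0.0026), and it kept its call without any 1 sample. Zc3h12a was not called and passed the adjusted p alone, with a log2 fold change of 0.70 (adjusted p = 0.0282 in edgeR). Tnfaip3, the gene of the NF-kappaB inhibitor A20, had 190, 104 and 146 counts against 540, 220 and 494, with a log2 fold change of 1.56 (adjusted p = 0.0315 in edgeR), and lost the call in 5 of 6 fits that left out a sample (adjusted p up to 0.12 in edgeR), all but that without Ptch1-ablated replicate 2.

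The prostaglandin genes Ptgs2 and Ptges both rose. Ptgs2, which encodes cyclooxygenase-2, had 3, 1 and 3 counts in control samples and 3016, 276 and 547 in Ptch1-ablated samples. Ptges, a prostaglandin E synthase, had 16.9, 18.1 and 19.5 TPM against 60.4, 38.3 and 43.5 TPM, with a log2 fold change of 1.46 (adjusted p = 0.0086 in edgeR). The matrix protease genes Mmp10 and Mmp13 had 3 to 13 and 6 to 7 counts in control samples and 52.7 to 117 and 46 to 229 in Ptch1-ablated samples, with adjusted p of 0.0107 and 0.011 in edgeR. In these 4 genes the groups were apart, and each call was lost without control replicate 2 (adjusted p from 0.0538 to 0.0731 in edgeR). Ptgs2, Mmp10 and Mmp13 were too low in control samples to pass the low-count filter there, and entered through their Ptch1-ablated samples. Genes as low in control samples that did not rise were not tested, so such genes could be called upward only. The count of rising targets includes them. The list's count of 6 was 3 in limma-voom, 8 in DESeq2, and 1 without control replicate 2. Of the list, 17 targets did not pass the filter. Among them Il6, Cxcl2, Cxcl3, Cxcl5, Ccl2, Ccl7, Ccl20, Csf2, Vcam1, Saa3 and Defb4 had overlapping groups. S100a8 and S100a9, which encode the subunits of calprotectin, had 0, 0 and 0 and 3, 4 and 4 counts in control samples, and 266, 1 and 3 and 1739, 7 and 31 in Ptch1-ablated samples, so nearly all their reads came from Ptch1-ablated replicate 1. Tnip3 (0, 1 and 2 against 16, 8 and 10 counts) and Mmp3 (0, 0 and 0 against 5.48, 2.28 and 5.38 counts) were also higher in every Ptch1-ablated sample.

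**Figure D5:**
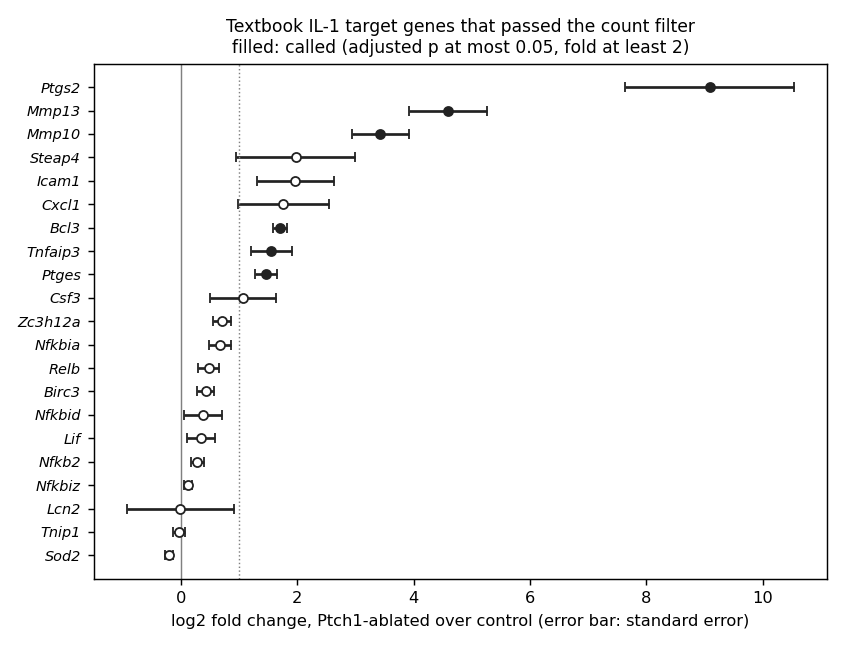
Log2 fold changes (Ptch1-ablated over control) with standard errors from edgeR for the 21 tested genes of the textbook IL-1 target list, with filled points for the 6 called genes and a dotted line at a 2-fold rise. Of the 21, 18 lie right of 0, and the position of Ptgs2 depends on the prior count because its control samples had 1 to 3 counts.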

How the data were processed

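RNA-seq of mouse corneal epithelium was analysed in 6 samples, 3 a group. The labels' protocol gives EDTA separation and the series title a sort, with no gate or marker named. Per the paper's methods and the submitters' processing notes, the authors aligned reads with Bowtie2 2.2.5 and quantified genes with RSEM 1.2.12, and the notes name the build mm9. The gene annotation is not given in the sources used here. The labels name an Illumina TruSeq kit, while the methods describe rRNA depletion and DNA nanoballs. The authors deposited expected counts, unscaled estimates per gene in which 39.4% of values above 0 were not whole, so genes with similar sequence can share reads. They also deposited TPM and FPKM values, scaled for length and depth, and group averages, which were not used. FPKM served only for the lengths implied by the deposited counts. The number of per-sample columns without a mapped sample was 0.

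Expected counts were rounded and fitted in edgeR 4.0.16 (TMM normalization, filterByExpr, quasi-likelihood test) in R 4.3.3 on the 12999 genes that passed the filter, with Benjamini-Hochberg adjustment over all of them. To be called, a gene needed an adjusted p no higher than 0.05 and at least a 2-fold change, as in the study's methods. Positive differences mean higher in Ptch1-ablated samples. Marker lists were summed as CPM. TPM ratios within samples were compared by 2-sided exact permutation tests. The alternatives used DESeq2 1.42.0, limma 3.58.1 (voom, and log2(TPM + 1) or log2(TPM + 0.1)), other size factors, filters and thresholds, a replicate block, and each sample left out. The procedure was tested on simulated data. Chi-square per degree of freedom was 10.6 to 40.0 between replicates of a group, above sampling noise.

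Members, gene lists and tests were chosen with earlier results of these data known. All 10 members were named. From each list, genes called or passing the adjusted p were named, which for the target list exceeded the planned limit of 6. Also named were Myd88, Irak1, Irak4, Il1rap, Casp1, Il18bp, Sigirr and the IL-36 antagonist gene. The 3 genes nearest in pattern to Il1a, Il1rn and Il1r2 were named too. Il18r1 and the named target genes that did not pass the filter were named outside this rule after their values were seen. The 2 promoter motifs were chosen by hand. Marker genes come from the lists. Promoter windows are from RefSeq GRCm38.p6, a different build from that of the files, so no position of a measured feature is given.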

Additional observations from a re-analysis of the deposited data

How the results depend on the processing

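With 1 sample left out, the number of called genes over all tested genes (420) ranged from 59 to 430, that of members (1) from 0 to 1, of other family genes (3) from 0 to 3, of processing genes (1) from 0 to 1 and of target genes (6) from 1 to 9. These fits had fewer samples. With control replicate 3 and Ptch1-ablated replicate 1 both left out, chosen after seeing the data, 0 members were called and the log2 fold change of Il1a was 0.82 (adjusted p = 0.00742 in edgeR). Il1a kept its direction and was called in 12 of 17 alternatives, with log2 fold changes from 0.82 to 1.29. The other tested members were never called, and Il1r1 (-0.0219 to 0.37) and Il1rap (-0.0016 to 0.21, and -0.0397 with both samples left out) changed sign. Il1r2 did not pass the filter of 10 counts in every sample and has no value there.

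The number of called genes was 203 with limma on log2(TPM + 1), 254 on log2(TPM + 0.1), 147 on log2(TPM + 1) with no filter, and 1822 with no minimum fold change. Other family genes called numbered 1 in limma-voom and 1 in each limma fit on TPM. With no minimum fold change, 4 signalling and 2 processing genes passed. Target genes called numbered 3 in limma-voom and 3 with at least 10 counts in every sample. Ptgs2, Mmp10 and Mmp13 each had a control sample below 10 counts and so had no value in that last fit. The cause of the other differences was not tested. Of the log2 ratio differences, 4 of 10 changed sign under some alternative. The Il1b to Il1rn difference was -0.14 on TPM + 1, and the Il1rap to Il1r1 difference was 9.62e-05 on CPM. With both samples left out, the Il1a to Il1b and Il33 to Il1rl1 differences were -0.23 and -0.11. With 1 sample left out they ranged from -0.25 to 0.46 for Il1a to Il1b, from -0.44 to 0.78 for Il33 to Il1rl1, and from -0.25 to 0.19 for Il1rap to Il1r1.

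The labels number replicates alike in both groups, but deviations of same-numbered samples correlated at 0.131, 0.0467 and 0.0594 across genes, and not every sample correlated best with its own number. The number is therefore not taken as a pairing. With it as a replicate block, 390 genes and 1 member were called, and Il1a had a log2 fold change of 1.09 (adjusted p = 0.0189 in edgeR). The depth limits statements on Il1b and Il1rl1, since few counts leave modest differences undetectable. Genes as low in control samples, such as Mmp13, were called where the difference was large. Il1r2 had 6 to 119 counts and a wide spread between replicates, and the part of depth in its result was not tested.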

Other observations

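Over the 6 samples, the genes whose log2 CPM pattern was most like that of Il1a by Pearson's r, among 8996 tested genes with a mean of at least 10 CPM, were Fgd3 (r = 0.999), Ercc1 (0.998) and Tubb6 (0.997). For Il1rn they were Camk2d (0.992), Ptpn2 (0.989) and Mospd2 (0.988), and for Il1r2 they were Cept1 (0.987), Fads2b (0.987) and Edem1 (0.985). These are the highest of many correlations over 6 points that share Ptch1-ablated replicate 1, and they are a description without a test.

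The deposited counts and FPKM imply an effective length for each gene, which RSEM averages over the transcripts it finds. For Il1a it lay between 1930 and 1936 bases in the 6 samples, for Il1rn between 2410 and 2417, for Il33 between 2506 and 2517 and for Il1rl2 between 4019 and 4053. For Il1r1 it lay between 4638 and 4772 bases and for Il1rap between 4301 and 4463, with overlapping groups. The lengths of Il1b, Il1r2 and Il1rl1 rest on few reads and are not given.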
